A study of Mus musculus with 46 samples.

Results

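Ovarian follicles 8 h after human chorionic gonadotropin (hCG) were compared with follicles 1 h after it, using 21 single-follicle RNA libraries of the 46 in the series. The 11 libraries at 8 h and the 10 at 1 h were taken by their labelled time and by the names of their wells, as those that share batch 1 and plate 1. Every follicle came from CD-1 mice, an outbred stock, and had grown for 8 days, alone in a well, inside an alginate bead in medium with recombinant follicle-stimulating hormone (FSH). Both groups were then freed from the bead and given 1.5 IU/ml hCG together with 10 ng/ml epidermal growth factor (EGF), 10 mIU/ml FSH and 10% fetal bovine serum, and they differ by the time until freezing, 1 h or 8 h. The labels tie no follicle to an animal and name no follicles held for the same times without hCG, so the tests here weigh a difference between times against follicle-to-follicle spread. The 8 h libraries carry names of well row C and the 1 h libraries of row E, so time and row cannot be told apart.

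hCG binds the receptor for luteinizing hormone on granulosa cells, the somatic cells that surround the oocyte, and raises cyclic AMP in them. Within minutes this switches on immediate early genes, whose products are mostly transcription factors that are made and removed quickly. EGF-like ligands then pass the signal to the cumulus cells next to the oocyte, which build a matrix of hyaluronan, while the oocyte resumes meiosis. Before the follicle ruptures, granulosa cells stop making estrogen and begin to turn into the luteal cells that make progesterone. A library of a whole follicle holds RNA of all its cells, so fewer cells of a type and less RNA per cell cannot be told apart.

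Of the marker sums given here, those of granulosa cells were the highest at both times. Inha, the inhibin alpha subunit, had a mean level of 23084 CPM (counts scaled to equal library size) at 1 h (SD 5818, n = 10). At 8 h its mean was 13063 CPM (SD 2489, n = 11). The summed level of 15 granulosa markers ranged from 55561 to 112730 CPM at 1 h and from 18305 to 32153 CPM at 8 h. Over the 21 libraries together, Gja1 gave 52.0% of it. At 8 h Gja1 averaged 10014 CPM and Inhba 1037. Each of the other markers but Inha averaged at most 39.1 CPM then, with Foxl2 at 2.62 and Fshr at 2.67. The 16 oocyte markers summed to 16.5 to 159 CPM at 1 h and 14.9 to 74.4 CPM at 8 h, and none of them had enough counts to be tested. The other cell types were summed in the same way. Theca and stroma markers (18 genes) summed to 509 to 7162 CPM at 1 h and 630 to 4002 CPM at 8 h, and smooth muscle markers (7 genes) to 486 to 2451 and 59.8 to 414 CPM, of which Acta2 gave 97.4%. Endothelial markers (8 genes) summed to 5.41 to 213 CPM at 1 h and 11.8 to 39.6 at 8 h, and leukocyte markers (9 genes) to 2.16 to 319 and 0 to 66.6. Surface epithelium markers (8 genes) summed to 0 to 28.9 CPM at 1 h and 11.1 to 64.3 at 8 h, with Muc16 and Msln at 0 in all 21 libraries. The part of these cells in the results that follow was not tested.

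Depth differed between the times. Total counts per library ran from 714844 to 2667129 at 8 h (median 1755429) and from 302737 to 1212671 at 1 h (median 767264), so a gene at 0 at 1 h is bounded less tightly than one at 0 at 8 h. Mitochondrially encoded genes took 9.78% of the counts at 8 h (SD 0.848, n = 11) and 12.4% at 1 h (SD 1.43, n = 10), a difference of -2.62 percentage points (two-sided permutation test, p = 0.00018). The first principal component, with 56.9% of the variance, separated the times without overlap. The second component carried 6.06% and set 1 h replicate 1 farthest from the rest. At 8 h, replicate 4 had the lowest CPM of its group for 199 of the 790 genes that rose 2-fold or more and the highest for 175 of the 791 that fell as much, where no other 8 h library exceeded 118 and 79.

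Of 25147 genes in the table, 6282 had enough counts to be tested, and 3616 of these (57.6%) differed between 8 h and 1 h by edgeR's quasi-likelihood test at an adjusted p under 0.05, the threshold used throughout. Of the genes tested, 1862 (29.6%) were higher and 1754 (27.9%) lower at 8 h. The change was 2-fold or more for 1581 (25.2%), with 790 higher (12.6%) and 791 lower (12.6%), and for 1054 genes (16.8%) the CPM ranges of the 11 and the 10 libraries did not overlap. The median log2 fold change over all genes tested was 0.04. The balance of rises and falls depended on the scaling. On TPM (transcript abundance scaled for gene length and depth), with limma on log2(TPM + 1), 68.2% of called genes were higher at 8 h, against 51.5% on counts, and the median over the genes tested moved from 0.04 to 0.30. Small changes are therefore read below relative to that shift, and a gene list whose direction turned on the TPM scale is named as such. The TPM fit also tested genes below the count filter, so the 2 fits differ in genes as well as in scale. The rises and falls of each list are to be read beside the 29.6% and 27.9% over all genes tested.

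**Figure D1:**
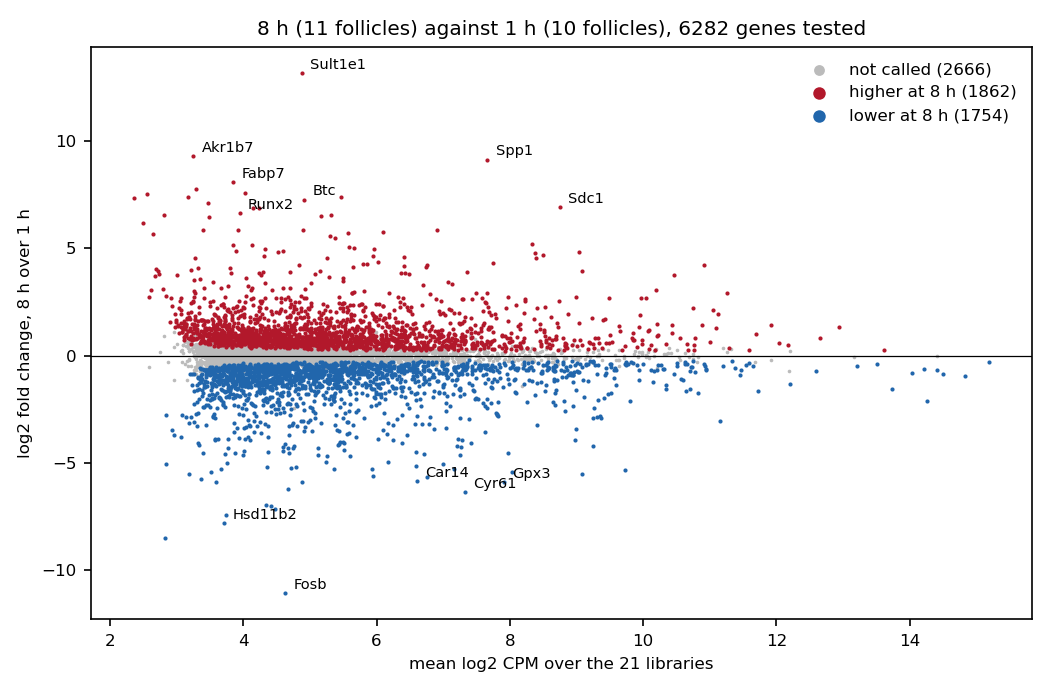
Log2 fold change at 8 h over 1 h (vertical axis) against the mean log2 CPM over the 21 libraries (horizontal axis), 1 point for each of the 6282 genes tested. Of these, 1862 were called higher at 8 h and 1754 lower; Sult1e1 and Akr1b7 were at 0 in every 1 h library, so the height of their points depends on the prior count of the fit.

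The immediate early genes had the lowest median change of the 38 gene lists on counts (on log2(TPM + 1) it was -2.28, and the smooth muscle markers, 3 genes, were lower at -2.35). Of 30 listed, 22 were tested: 21 fell and 1 rose, with a median log2 fold change of -3.63 beside 0.04 over all genes. Fosb, an AP-1 subunit, held 136 to 975 CPM at 1 h (median 454) and 0 to 0.527 at 8 h, where 8 of 11 libraries had no count. Its 3 counts at 8 h against 3508 at 1 h give a ratio of counts at equal depth of 0.000275 (95% exact interval 5.67e-05 to 0.000805, counting error only). Egr4, a zinc finger factor, held 15.6 to 63.9 CPM at 1 h (median 40.2) and no count in any 8 h library, so it was at least 237-fold lower, taking 3 counts over the group as the floor. Atf3, a stress-induced repressor, ran from 31.4 to 331 CPM at 1 h (median 92.8) and from 0 to 2.26 at 8 h (median 0.695), a log2 change of -7.44 ± 0.53 (SE). For none of these 3 genes did the groups overlap.

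The NR4A orphan nuclear receptors, which bind DNA without a known hormone, all fell. Nr4a1 ran from 4035 to 12976 CPM at 1 h (median 5824) and from 13.5 to 1127 at 8 h (median 46.7), a log2 change of -5.50 ± 0.72 (SE). Nr4a2 ran from 59.9 to 939 CPM (median 236) and then from 0 to 17.5 (median 0.527), with a change of -7.02 ± 0.73. Nr4a3 ran from 77.9 to 567 CPM (median 170) and then from 0 to 8.95 (median 0.934), with a change of -6.98 ± 0.53. The highest 8 h value of all 3 genes belonged to replicate 4, and without that follicle the changes were -7.09, -9.31 and -8.07. Even with it the groups did not overlap.

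Other members of the list fell less far. Egr1, the best known of the early growth response factors, ran from 1224 to 4666 CPM at 1 h (median 1729) and from 28.7 to 481 at 8 h (median 359), a change of -2.84 ± 0.36. Egr2 fell by 5.26 on the log2 scale, and the AP-1 genes Fos (-4.96), Jun (-4.52), Junb (-2.89) and Fosl2 (-1.19) fell too, so that the AP-1 subunits tested spanned a wide range of size. Btg2, an antiproliferative gene whose product promotes mRNA decay, fell from 3971 to 14291 CPM (median 5158) to 32.9 to 387 (median 117). Among the genes tested the exception was Ier3, an early gene linked to cell survival. It rose from 40.5 to 297 CPM (median 95) to 562 to 932 (median 757), a change of 2.56 ± 0.26. Fosl1, another AP-1 gene of the list, was below the count filter, with 0 to 2.64 CPM at 1 h and 1.36 to 12.04 at 8 h. With no count filter, 2 of 30 genes of the list rose and 25 fell. At 1 h the highest values of Nr4a1, Fos, Egr1, Junb and Btg2 all belonged to replicate 7.

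**Figure D2:**
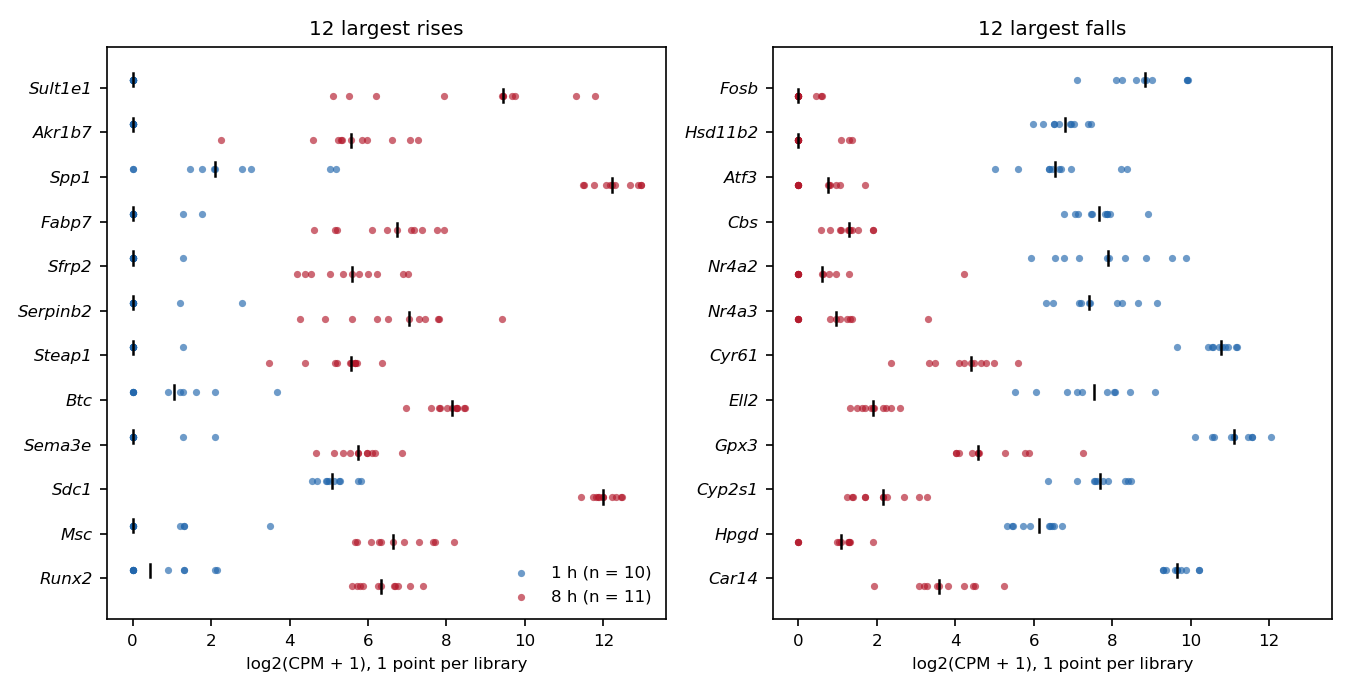
CPM of the 12 largest rises (left) and the 12 largest falls (right) on a log2(CPM + 1) axis, 1 point per library (blue, 1 h, n = 10; red, 8 h, n = 11), with a black bar at the median. The ranges of the 2 times do not overlap for any of the 24 genes.

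The 250 bases before the start of transcription are shown for 5 immediate early genes that fell strongly and 3 of the strongest rises. Genes were taken only if RefSeq's promoter table held exactly 1 window for them, so Spp1, which rose more than Fabp7, is not shown. Hsd11b2 (-7.79) and Cbs (-7.14), outside the immediate early list, fell further than Nr4a2 (-7.02) and Nr4a3 (-6.98) and are not shown. The falls and rises shown were thus not chosen alike, and their matches do not compare the directions. These windows are shown because the cyclic AMP pathway is known to act through the CREB element TGACGTCA and its core TGACG. They come from RefSeq's promoter table (GRCm38.p6), read 5′ to 3′ on the gene's strand, with 1 line for each gene. Capitals mark TGACG on either strand (CGTCA is the reverse complement); TGACGTCA, the AP-1 site TGANTCA and the CArG box of serum response factor were also searched on both strands and are absent from these 8 windows. A TGACGTCA match also contains TGACG.

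Fosb (chr7:19310046-19310295, minus strand): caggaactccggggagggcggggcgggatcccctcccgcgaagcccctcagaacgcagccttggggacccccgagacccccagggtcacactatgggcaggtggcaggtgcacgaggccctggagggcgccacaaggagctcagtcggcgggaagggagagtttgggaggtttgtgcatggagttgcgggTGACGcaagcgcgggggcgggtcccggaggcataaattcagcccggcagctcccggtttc

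Egr4 (chr6:85513590-85513839, minus strand): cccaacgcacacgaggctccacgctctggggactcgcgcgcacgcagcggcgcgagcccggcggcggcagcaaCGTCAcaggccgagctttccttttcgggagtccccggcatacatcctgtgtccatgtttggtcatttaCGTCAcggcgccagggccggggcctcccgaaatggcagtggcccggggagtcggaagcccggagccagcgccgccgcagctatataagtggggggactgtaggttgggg

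Atf3 (chr1:191183334-191183583, minus strand): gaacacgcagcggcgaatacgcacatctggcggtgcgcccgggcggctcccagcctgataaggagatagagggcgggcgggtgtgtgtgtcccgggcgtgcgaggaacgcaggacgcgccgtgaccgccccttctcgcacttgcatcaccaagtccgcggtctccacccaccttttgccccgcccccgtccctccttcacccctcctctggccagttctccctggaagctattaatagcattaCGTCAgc

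Nr4a2 (chr2:57124004-57124253, minus strand): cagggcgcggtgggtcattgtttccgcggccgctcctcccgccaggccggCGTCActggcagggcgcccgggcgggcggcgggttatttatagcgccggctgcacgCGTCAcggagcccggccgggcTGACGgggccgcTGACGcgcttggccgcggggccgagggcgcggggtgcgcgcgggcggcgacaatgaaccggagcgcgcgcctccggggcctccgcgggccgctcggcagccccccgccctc

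Nr4a3 (chr4:48045055-48045304, plus strand): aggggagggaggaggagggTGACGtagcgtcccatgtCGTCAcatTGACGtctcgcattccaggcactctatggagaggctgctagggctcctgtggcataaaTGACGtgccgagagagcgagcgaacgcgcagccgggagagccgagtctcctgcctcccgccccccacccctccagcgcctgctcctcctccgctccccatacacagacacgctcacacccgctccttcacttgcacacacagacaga

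Sult1e1 (chr5:87591612-87591861, minus strand): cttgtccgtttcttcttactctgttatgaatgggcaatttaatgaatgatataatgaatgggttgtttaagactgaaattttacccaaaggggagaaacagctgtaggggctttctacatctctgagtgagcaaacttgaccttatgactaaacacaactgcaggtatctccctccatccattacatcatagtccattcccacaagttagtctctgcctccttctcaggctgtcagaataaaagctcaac

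Akr1b7 (chr6:34412112-34412361, plus strand): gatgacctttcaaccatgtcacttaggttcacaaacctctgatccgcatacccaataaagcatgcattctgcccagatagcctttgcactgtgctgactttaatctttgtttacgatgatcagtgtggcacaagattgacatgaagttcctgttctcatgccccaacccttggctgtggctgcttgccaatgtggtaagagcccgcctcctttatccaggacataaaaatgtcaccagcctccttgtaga

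Fabp7 (chr10:57784673-57784922, plus strand): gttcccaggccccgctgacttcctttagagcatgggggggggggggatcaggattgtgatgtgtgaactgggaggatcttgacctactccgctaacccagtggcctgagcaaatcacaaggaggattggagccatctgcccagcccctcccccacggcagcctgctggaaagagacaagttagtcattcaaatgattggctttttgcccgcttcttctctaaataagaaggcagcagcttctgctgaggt

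Nr4a2 and Nr4a3 held 4 matches to TGACG each, Egr4 held 2, and Fosb and Atf3 held 1 each. Of the 21 immediate early genes that fell, 16 had a promoter in the table, and 12 of those (75.0%) held TGACG in at least 1 window. The same letters stood in 33.7% of 4707 genes tested with a promoter, in 35.0% of 214 genes that fell 4-fold or more, in 23.2% of 190 that rose 4-fold or more, and in 19.8% of all 27025 genes of the table. The windows also differed in base composition, with a median of 64.8% G or C for the early genes, 60.4% for genes tested and 52.4% for all genes. Genes with several starts have several windows: counted by window, TGACG stood in 73.9% of the 23 early gene windows and in 29.1% of the windows of genes tested. TGANTCA stood in 12.1% of the genes that rose 4-fold or more, 7.94% of those that fell as much, 6.25% of the early genes that fell, 5.31% of genes tested and 7.82% of all genes. The CArG box stood in 2 of the 16 early genes (12.5%), against 1.44% of genes tested. These matches describe letters in a window and show no binding.

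Feedback genes of the cyclic AMP and ERK pathways split. Of 12 tested in the cyclic AMP list, 7 fell and 3 rose. Sik1, a kinase that shuts off CREB coactivators, fell from 28.6 to 285 CPM (median 93.0) to 0.749 to 10.8 (median 6.45), a change of -4.26 ± 0.38, and Crem, which codes for a repressor of the same element, fell by 3.64 on the log2 scale. Fam110c rose from 2.64 to 24.3 CPM (median 6.27) to 58.7 to 195 (median 102). In the list of EGF ligands and ERK feedback 11 were tested, 5 rose and 4 fell. Its median was 0.49 on counts and -0.04 on log2(TPM + 1), where 15 were tested. On counts with no count filter it was -0.27 over 19 genes.

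Among ligands of the EGF receptor, Btc (betacellulin) changed the most. It ran from 0 to 11.9 CPM at 1 h (median 1.10) and from 124 to 352 at 8 h (median 281), a change of 7.28 ± 0.39 that became 8.15 without 1 h replicate 5. Ereg (epiregulin) rose by 2.39 ± 0.52, from 2.38 to 50.4 CPM (median 24.0) to 2.98 to 348 (median 140), and its groups overlapped. Areg (amphiregulin) passed the threshold narrowly, from 0 to 44.9 CPM (median 8.29) to 8.99 to 77.9 (median 30.6), with a change of 1.18 ± 0.45 and an adjusted p of 0.027 by edgeR. Without 1 h replicate 3 that p was 0.057, and in the fit of all 46 libraries the change was 0.45 with an adjusted p of 0.59. Dusp4, an ERK phosphatase, rose by 3.43 ± 0.47. Dusp1, another phosphatase of the family, fell by 1.39 on the log2 scale, a change that dropped to -0.47 and lost its call without 1 h replicate 7, the library that held the 429 CPM maximum. It also lost its call on log2(TPM + 1) (-0.14).

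Most tested genes of the cumulus and hyaluronan matrix list rose at 8 h. Of 15 listed, 9 were tested, 6 rose and 2 fell, with a median log2 change of 3.95. The list also holds Ptgs2, whose change is that median, and Tnfaip3, its largest fall (-3.91). Both are described below and code for no matrix protein. Ptx3 (pentraxin 3), which anchors the hyaluronan network, went from 0 to 1.49 CPM (6 of 10 libraries with no count) to 9.09 to 137 (median 54.9), a change of 6.44 ± 0.63. Tnfaip6, which links heavy chains to hyaluronan, went from 0 to 44.9 CPM (median 10.7) to 114 to 442 (median 263), a change of 4.27 ± 0.42. Vcan (versican), a proteoglycan, went from 11.4 to 168 CPM (median 96.9) to 355 to 5826 (median 1519), a change of 4.56 ± 0.53, and Cd44, the hyaluronan receptor, rose by 5.87 ± 0.50. None of these 4 genes overlapped between the times. The other hyaluronan receptor of the list, Hmmr, fell by 0.93 on the log2 scale and also has roles in the mitotic spindle. On log2(TPM + 1) its change was -0.43 with an adjusted p of 0.22 by limma. Has2, the hyaluronan synthase of cumulus cells, was below the count filter with 0 to 14.9 CPM at 1 h (median 6.26) and 0.727 to 63.7 at 8 h (median 15.3).

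Prostaglandin genes changed in opposite directions within one pathway. Ptgs2 (cyclooxygenase 2), which makes the prostaglandin precursor, rose from 0 to 22.7 CPM (median 11.1) to 17.2 to 332 (median 125), a change of 3.95 ± 0.48 with overlapping ranges. Pla2g4a, which frees arachidonic acid for it, rose by 2.33 ± 0.25. Ptges, a synthase of prostaglandin E2, fell from 96.3 to 210 CPM (median 134) to 7.65 to 28.7 (median 17.2), a change of -3.08 ± 0.18. Hpgd, which degrades prostaglandins, fell from 38.8 to 105 CPM (median 70.7) to 0 to 2.73 (median 1.12), a change of -5.87 ± 0.30. For Ptges and Hpgd the groups did not overlap.

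Genes tied to the progesterone receptor, a transcription factor that ovulation requires, were mostly higher: of 10 tested, 6 rose and 2 fell. Runx2 went from 0 to 3.47 CPM (5 of 10 libraries with no count) to 47.3 to 167 (median 78.9), a change of 6.63 ± 0.43, and Runx1 from 0 to 10.4 CPM (median 5.28) to 118 to 445 (median 266), a change of 5.50 ± 0.31. Both code for transcription factors of late ovulatory granulosa cells. Prkg2, a cyclic GMP kinase, had 1 count over all 1 h libraries and 378 at 8 h, a ratio of 122 at equal depth (95% exact interval 21.7 to 4815, counting error only), and its fitted change went from 6.19 to 7.58 without 1 h replicate 1. Pparg and Epas1, both transcription factors, fell by 3.20 and 3.13 on the log2 scale. Pgr itself was below the filter at both times, with 0 to 5.93 CPM at 1 h (median 0.981) and 0 to 4.90 at 8 h (median 2.48). Of the proteases and inhibitors, 16 were tested, 9 rose and 4 fell. Serpinb2, an inhibitor of plasminogen activators, went from 5 counts over all 1 h libraries to 18.3 to 685 CPM (median 130), with a change of 7.57 ± 0.86 that became 9.27 without 1 h replicate 4, and Timp1, an inhibitor of metalloproteases, rose by 5.74 ± 0.39. Adamts1, a protease of the ovulating follicle, did not pass (0.24 ± 0.48, adjusted p = 0.69 by edgeR), nor did it hold its sign across settings.

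Most genes of the growing follicle fell. Of 20 tested, 15 fell and 2 rose, with a median log2 change of -2.18; all 10 tested granulosa markers also fell (median -2.91), 9 of which the first list also holds. Cyp19a1 (aromatase), which makes estradiol, ran from 131 to 1613 CPM at 1 h (median 548) and from 5.79 to 47.9 at 8 h (median 28), a change of -4.47 ± 0.44. Hsd17b1, which acts beside it, fell by 5.13 on the log2 scale. The FSH receptor Fshr went from 34.7 to 119 CPM (median 72.1) to 0 to 6.41 (median 2.48), a change of -4.56 ± 0.36, and the receptor that hCG binds, Lhcgr, from 3.25 to 278 CPM (median 69.3) to 0 to 24.7 (median 5.46), a change of -3.08 ± 0.60 with overlapping ranges. Inhba, the activin and inhibin beta A subunit, fell by 3.07 on the log2 scale, and Esr2, the main estrogen receptor of granulosa cells, also fell (-4.42). Angpt2, a vessel factor from the hypoxia and angiogenesis list, fell by 4.59.

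The signal that holds the oocyte in meiotic arrest depends on a peptide, Nppc, its receptor Npr2 on granulosa cells, and gap junctions. Npr2 ran from 68.1 to 188 CPM at 1 h (median 94.5) and from 2.17 to 10.9 at 8 h (median 4.17), a change of -4.43 ± 0.23. Gja1 (connexin 43), the gap junction protein of granulosa cells, ran from 33143 to 54713 CPM (median 42900) and then from 6053 to 13581 (median 9947), a change of -2.10 ± 0.14. The groups were apart for both. Nppc was below the filter, with 2.06 to 78.6 CPM at 1 h (median 20.3) and 0 to 5.82 at 8 h (median 2.61). Of the 5 genes of this list tested, 4 fell.

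The rise of Sult1e1, the estrogen sulfotransferase that inactivates estradiol, was the largest in the comparison. The gene lies on chromosome 5 (GRCm38, 87575969 to 87591594) and had no count in any of the 10 libraries at 1 h, while the 8 h libraries held 33.7 to 3552 CPM (median 691). It was at least 2156-fold higher, with 3 counts over the 1 h group as the floor. Its spread among 8 h follicles was wide, and replicates 3 and 4 were lowest. Akr1b7, an aldo-keto reductase known from steroid-making cells, was likewise at 0 in all 1 h libraries and held 3.73 to 154 CPM at 8 h (median 46.2), at least 133-fold higher. Sult1e1 is one of the 2 members of the growing follicle list that rose; the other, Kitl (the KIT ligand), rose by 0.59 ± 0.19, but by 0.31 with an adjusted p of 0.41 by edgeR when all 46 libraries were fitted.

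Spp1 (osteopontin), a secreted adhesion protein, had the largest fitted rise among genes with a count in any 1 h library. It lies on chromosome 5 (104435118 to 104441050) and went from 0 to 35.1 CPM at 1 h (median 3.27) to 2833 to 7931 at 8 h (median 4776), a change of 9.14 ± 0.54. On the TPM scale it went from 7.69 ± 11.0 (SD, n = 10) to 5370 ± 1964 (SD, n = 11), which placed it among the 15 most abundant genes at 8 h. Sdc1 (syndecan 1), a heparan sulfate proteoglycan, had the smallest error of the 12 largest rises, going from 22.9 to 56 CPM (median 32.8) to 2777 to 5675 (median 4057), a change of 6.92 ± 0.20. Fabp7, a fatty acid binding protein, had 2 counts over the 1 h libraries and 23.8 to 243 CPM at 8 h (median 105), a ratio of 330 at equal depth (95% exact interval 91.2 to 2727). Its fitted change of 8.09 became 8.69 without 1 h replicate 1 and 8.75 without replicate 5. Sfrp2 (a secreted modulator of WNT signaling) and Steap1 (a membrane protein) each had 1 count at 1 h, with ratios of 382 (68.5 to 15118) and 275 (49.2 to 10862); without 1 h replicate 1, which held that count in both, the fitted changes went from 7.77 to 9.17 and from 7.39 to 8.78. Sema3e, a guidance ligand, went from 7.09 to 7.70 and 7.76 without 1 h replicates 1 and 10, and the transcription factor Msc from 6.90 to 7.76 without replicate 9.

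Falls among genes not on the list of immediate early genes used here included enzymes of steroid and redox metabolism. Hsd11b2, which inactivates glucocorticoids, went from 62.6 to 174 CPM (median 110) to 0 to 1.58, with no count in 8 of 11 libraries at 8 h, a change of -7.79 ± 0.36. Cbs, the first enzyme of transsulfuration, went from 108 to 480 CPM (median 203) to 0.496 to 2.74 (median 1.45), a change of -7.14 ± 0.29. Gpx3, a secreted glutathione peroxidase, went from 1102 to 4264 CPM (median 2208) to 15.3 to 151 (median 23), a change of -5.90 ± 0.42. Car14, a carbonic anhydrase, fell by 5.86 on the log2 scale, while Car12 of the same family rose by 3.61. Cyr61, a matricellular target of YAP signaling, went from 805 to 2319 CPM (median 1744) to 4.09 to 47.8 (median 20.3), a change of -6.35 ± 0.31.

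Of the steroid synthesis genes, Star, Cyp11a1 and Hsd3b1 moved less than these genes, while Cyp19a1 and Hsd17b1 fell as given above. Star, which carries cholesterol into mitochondria, ran from 36.8 to 902 CPM at 1 h (median 359) and from 16.4 to 1439 at 8 h (median 206), a difference of 0.10 ± 0.60 (adjusted p = 0.90 by edgeR). Cyp11a1, which cleaves cholesterol, differed by 0.44 ± 0.60 (adjusted p = 0.55) and Hsd3b1, which completes progesterone, by -0.70 ± 0.32 (adjusted p = 0.063). None of the 3 passed, but Hsd3b1 did with all 46 libraries (-0.81, adjusted p = 0.028 by edgeR) and in 4 of the fits without 1 library (8 h replicates 4 and 11, 1 h replicates 5 and 8). The sign of Star turned without 8 h replicate 8 (-0.28), which held its highest value, and without 1 h replicate 6 (-0.01) or 3 (-0.03), which held the lowest values at 1 h. Of 22 tested genes of progesterone synthesis and luteinization, 7 rose and 7 fell, near the shares over all genes tested (29.6% and 27.9%). Sfrp4 rose by 4.16 ± 0.59 and the electron donors Fdxr and Por by 2.04 and 1.98 on the log2 scale, while the transcription factors Nr5a1 and Nr5a2 fell by 1.74 and 2.27 and Gata4 by 1.90.

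Of 17 tested fatty acid and lipid storage genes 11 rose, none fell and 6 were not called, with a median change of 0.95. Acsl4, which activates arachidonic acid, went from 101 to 171 CPM (median 125) to 986 to 2919 (median 2049), a change of 3.95 ± 0.18, and Scd1, a desaturase, from 13.9 to 84.5 (median 38.0) to 167 to 846 (median 503), a change of 3.45 ± 0.32. In the sterol synthesis list 10 of 24 rose, 4 fell and 10 were not called on counts, beside 29.6% higher and 27.9% lower over all genes tested. On log2(TPM + 1) 15 of 26 rose and none fell, where 3696 of all 10907 genes tested rose and 1726 fell. Lss rose by 1.32 ± 0.16 and Srebf2, the regulator of the pathway, by 1.14 ± 0.17.

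Most glycolysis genes also rose: 14 of 20 tested were higher and 2 lower, with a median of 1.11. Slc2a1, the main glucose transporter, went from 3.47 to 32.6 CPM (median 21.5) to 32.8 to 208 (median 109), a change of 2.28 ± 0.28, and Hk2, a hexokinase, rose by 2.20 ± 0.36. Pkm, Gapdh and Ldha, which act later in the pathway, rose by 1.43, 1.07 and 0.83 on the log2 scale. The members that fell were Ldhb (-2.81 ± 0.25), the lactate dehydrogenase subunit that favors lactate use, and Slc16a1 (-3.26 ± 0.19), a lactate transporter, while Slc16a3, a transporter known for lactate export, rose by 2.07. Of 8 hypoxia and angiogenesis genes tested, 5 rose and 2 fell, and Ndrg1 rose by 4.07 ± 0.63, or 4.70 without 1 h replicate 6. Vegfa was below the filter at 0 to 16.5 CPM at 1 h (median 5.32) and 0.695 to 5.60 at 8 h (median 2.61).

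**Figure D3:**
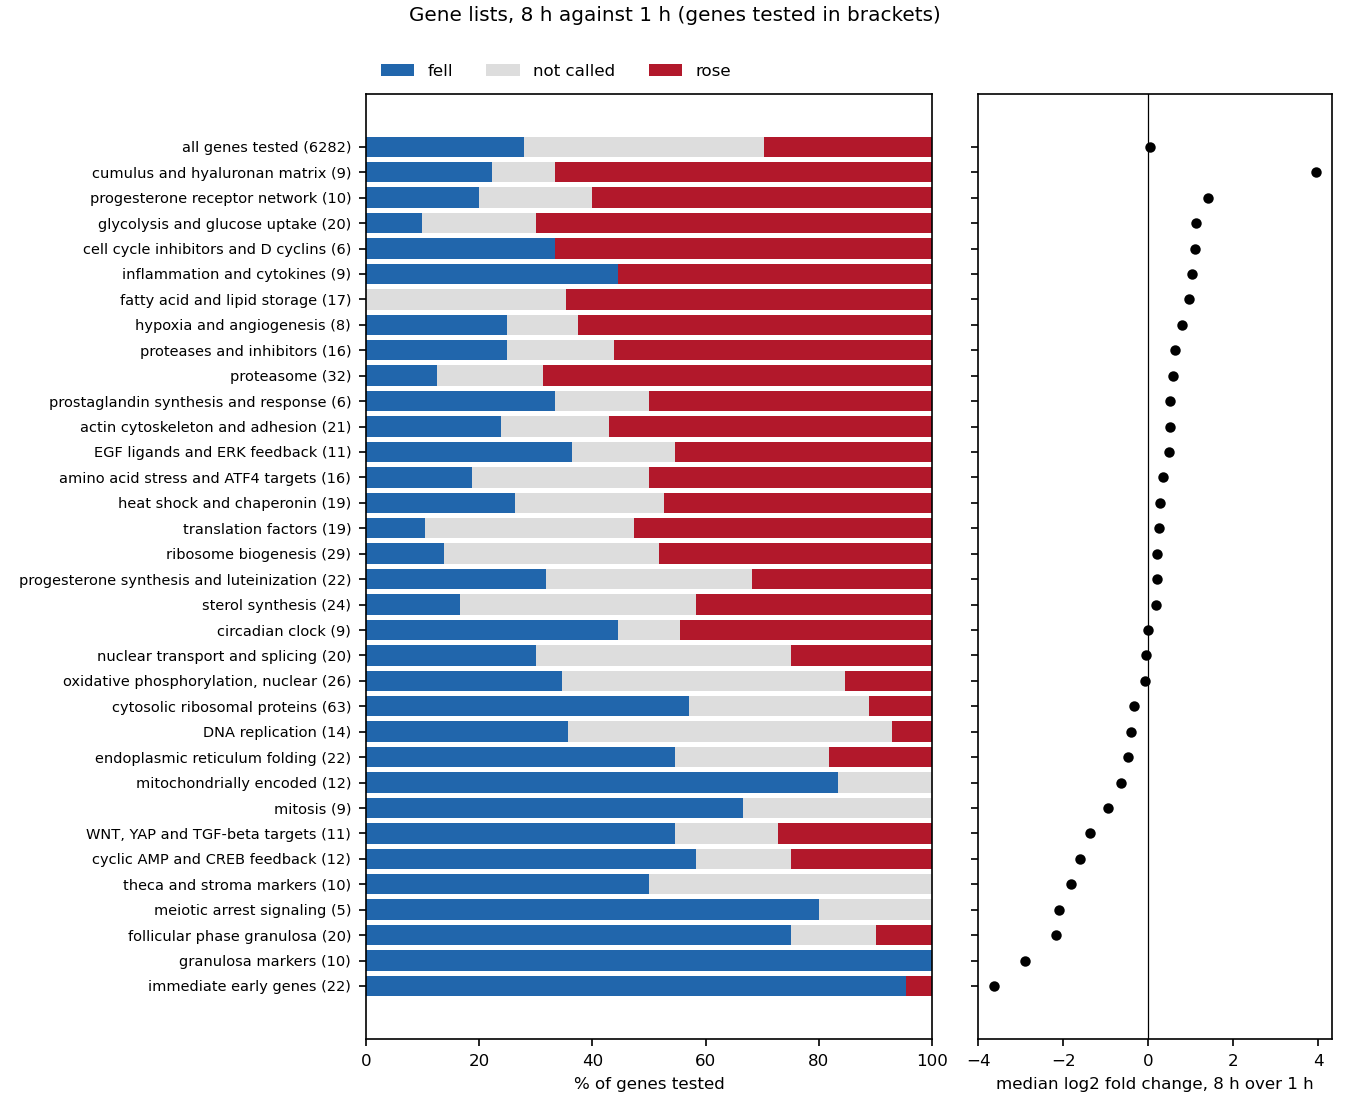
Left, the share of tested genes in each list that fell (blue), were not called (grey) or rose (red) at 8 h against 1 h, with the number tested in brackets; right, the median log2 fold change of the list on counts. Of the immediate early genes 21 of 22 fell, and of the glycolysis genes 14 of 20 rose. On log2(TPM + 1) the median changed sign for EGF ligands, inflammation, cell cycle inhibitors, DNA replication, nuclear transport and nuclear oxidative phosphorylation. More members of each of these lists were tested there. On counts with no count filter the median also changed sign for all of these lists but inflammation and DNA replication. The median over all genes of the fit was 0.04 on counts, 0.27 on log2(TPM + 1) and 0.19 with no count filter.

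Protein turnover genes moved apart from one another. Of 32 proteasome subunits 22 rose and 4 fell, with a median of 0.58 on counts and 0.89 on log2(TPM + 1); Psmd13 and Psmb5 rose by 1.41 and 1.39, and Psma2 fell by 1.39. Cytosolic ribosomal proteins went the other way on counts, with 36 of 63 lower, 7 higher and a median of -0.33. On log2(TPM + 1) 17 were lower, 14 higher and the median was -0.08. Over all genes the median was 0.04 on counts and 0.27 on log2(TPM + 1). The ribosomal proteins lay below it and the proteasome subunits above it on both scales. Ribosome biogenesis genes (14 of 29 higher, 4 lower) and translation factors (10 of 19 higher, 2 lower) had medians of 0.21 and 0.25. Eif6 and Eif5a rose by 1.96 ± 0.12 and 1.40 ± 0.10. Of 22 endoplasmic reticulum folding genes 12 fell and 4 rose (median -0.48). Herpud1, a degradation factor of that compartment, changed most, from 254 to 759 CPM (median 477) to 4.49 to 12.9 (median 9.73), a change of -5.61 ± 0.23, while Hspa5, its main chaperone, fell by 0.92. Among heat shock and chaperonin genes 9 of 19 rose and 5 fell, and the largest falls were the cochaperones Dnajb4 (-3.92 ± 0.25) and Dnajb1 (-1.79 ± 0.25).

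All 10 called genes of 12 tested in the mitochondrial genome fell, with a median of -0.65, mt-Nd2 by 1.55 and mt-Nd3 by 1.24 on the log2 scale. Nuclear genes of oxidative phosphorylation gave 9 falls and 4 rises of 26 on counts, with a median of -0.08. Over all genes tested 27.9% fell and 29.6% rose. On log2(TPM + 1) these nuclear genes gave 3 falls and 11 rises of 27, with a median of 0.15. Counts with no count filter gave 4 falls and 7 rises of 27 (median 0.06), so the sign of this median depended on the scale and the filter. The median over all genes of each fit was 0.04, 0.27 and 0.19 in the same order, above that of the list each time. Of 16 genes of amino acid stress and ATF4 targets, 8 rose and 3 fell. Nupr1, a stress-responsive chromatin protein, rose by 4.34 ± 0.32 and the receptor Vldlr by 2.62 ± 0.24, while Atf4 itself fell by 1.2 and Ppp1r15a, which restores translation after stress, by 4.28.

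Of 9 mitosis genes tested 6 fell and none rose (median -0.95), including the cyclins Ccna2 (-1.41 ± 0.30) and Ccnb1 (-1.28 ± 0.30). On log2(TPM + 1) 5 of 25 fell (median -0.42), and Ccnb1 lost its call there (adjusted p = 0.068 by limma), as Ccna2 did with a pseudocount of 0.1 (adjusted p = 0.057). Of 14 DNA replication genes 5 fell, 1 rose and 8 were not called, beside 27.9% lower and 29.6% higher over all genes tested. The median of this list was -0.41, or 0.01 on log2(TPM + 1), where 24 were tested and the median over all genes was 0.27. Among D cyclins and inhibitors, Ccnd2, the cyclin of proliferating granulosa cells, fell by 1.49 and Ccnd3 rose by 1.50, and the inhibitors Cdkn2d, Cdkn1b and Cdkn1a rose by 2.55, 1.13 and 1.05. Of 16 in this list only 6 were tested, of which 4 rose and 2 fell (median 1.09). On log2(TPM + 1) 4 of 13 rose and 4 fell, with a median of -0.13. Most mitosis genes were too low to be tested: of 26 listed, 17 were below the filter. At 1 h, replicate 1 held the lowest CPM of Ccna2, Hmmr and Mcm3.

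Inflammatory genes split into 5 rises and 4 falls of 9 tested, and their median of 1.04 on counts was -0.43 on log2(TPM + 1), where 18 were tested. Cxcl1, a neutrophil chemokine, fell from 220 to 1873 CPM (median 577) to 23.4 to 78.4 (median 42.1), a change of -3.95 ± 0.32, as did the NF-kappaB regulators Tnfaip3 (-3.91 ± 0.45), Nfkbiz (-3.30) and Nfkbia (-1.47). Socs3, which dampens cytokine signaling, went from 0 to 7.09 CPM (median 0.541) to 5.97 to 169 (median 58.4), a change of 5.14 ± 0.63. Lyz2, the one leukocyte marker tested, fell by 2.31 on the log2 scale and lost its call without 1 h replicate 1 (-1.61) and on log2(TPM + 1) (adjusted p = 0.066 by limma). Lyz2 made up 88.9% of the leukocyte sum given above, and the 8 other markers averaged at most 1.92 CPM at either time. Of the theca and stroma markers 5 of 10 fell and none rose, led by Aldh1a1 (-4.97 ± 0.52), and the smooth muscle actin Acta2 fell by 2.59.

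The follicles at 4 h add a time between 1 h and 8 h. Batch 1 holds 10 of them, on plate 2, and their TPM are given beside the others with no test, since plate and time cannot be told apart there. The genes placed here were called on counts, while their means are on the TPM scale. Of 1860 genes that rose from 1 h to 8 h and have a TPM, the 4 h mean lay between the others for 1131, above both for 540 and below both for 189. Of 1750 that fell, it lay between for 754, below both for 661 and above both for 335. The largest rises were of both kinds. Spp1 had mean TPM of 7.69 at 1 h, 60.8 at 4 h and 5370 at 8 h, and Sdc1 had 15.7, 461 and 2191, so their 4 h means lay between. Sult1e1 had 0, 6260 and 1065, and Btc had 1.39, 1748 and 214, with 4 h above both.

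Several ovulation genes had a higher mean at 4 h than at both other times. Areg had mean TPM of 12.7, 676 and 39.3, Pgr 0.3, 30.8 and 0.455, Has2 1.81, 74.7 and 6.98, and Star 204, 850 and 260. Ptgs2 had 2.83, 990 and 48.0 and Tnfaip6 9.61, 1300 and 231. Cxcl1, which was lower at 8 h than at 1 h, had 897, 4898 and 69.3. Among the early genes, Nr4a1 had 3262, 121 and 92.0 and Fosb 272, 0.616 and 0.0782, while Egr1 had 800, 519 and 133.

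**Figure D4:**
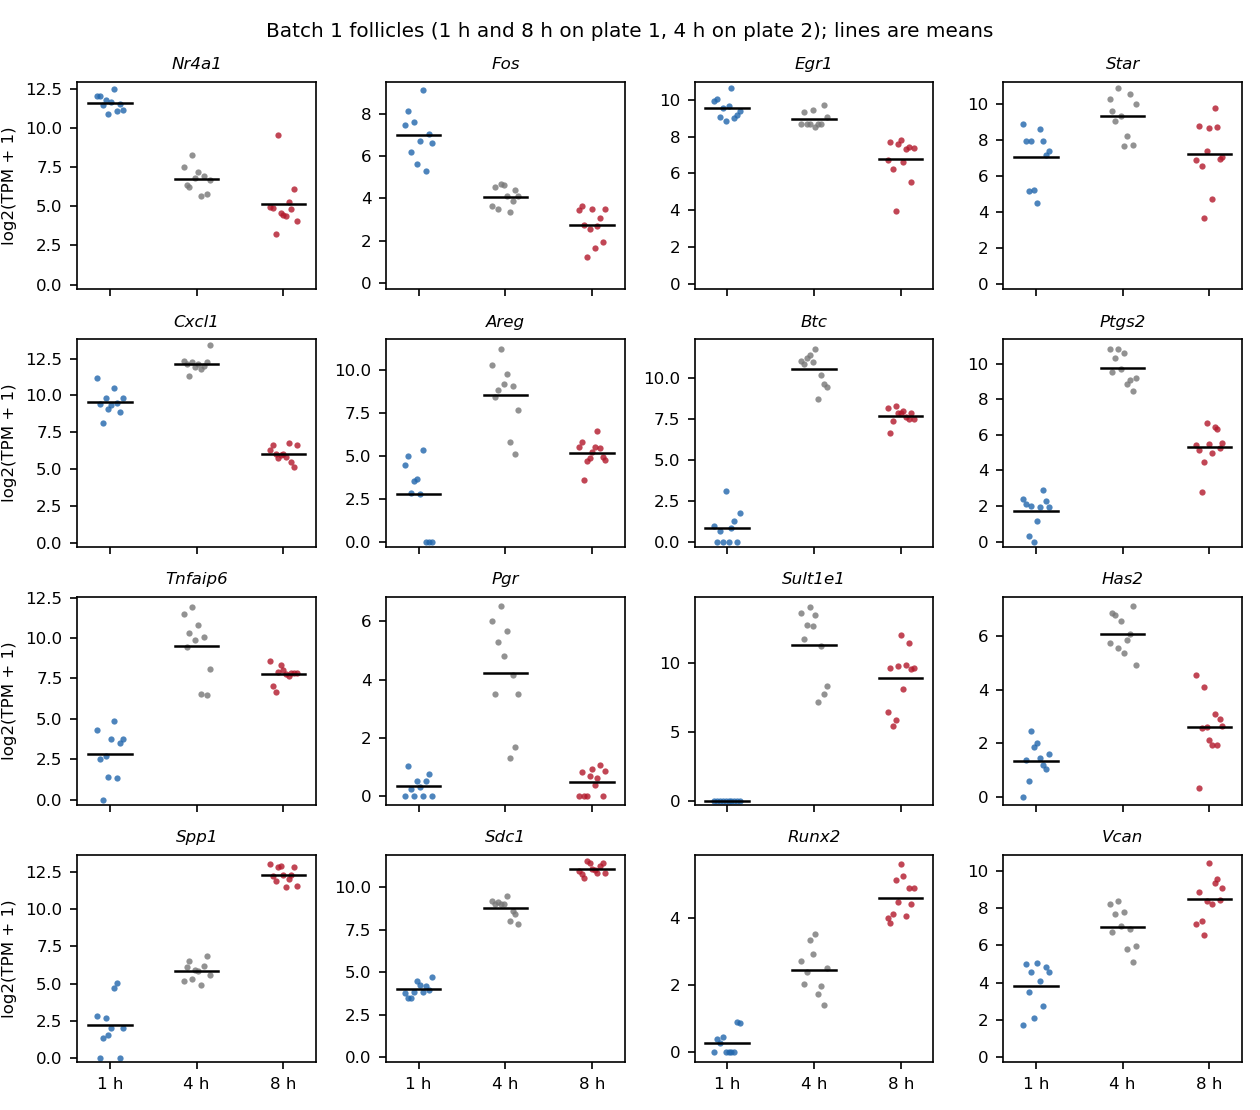
log2(TPM + 1) of 16 genes in single follicles of batch 1 at 1 h (blue, n = 10), 4 h (grey, n = 10, on another plate) and 8 h (red, n = 11); black lines are group means on that scale. Nr4a1 and Fos were highest at 1 h, Areg, Btc, Ptgs2, Pgr and Has2 at 4 h, and Spp1, Sdc1, Runx2 and Vcan at 8 h.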

How the data were processed

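Libraries of single follicles were made with Smart-Seq2 and Nextera XT, per the labels' protocols. They keep no strand, so a gene and its antisense partner share reads here. The submitters' processing notes name HISAT2, the build GRCm38, Partek and DESeq2, without versions. The deposited count table holds whole numbers, and its name says that the authors adjusted it with ComBat-seq, whose settings are not given in the sources used here. By its name, the deposited TPM table was computed by the authors from those adjusted counts. Because that adjustment drew on the whole series, the counts of these 21 libraries are not raw. Columns that matched no described sample (10) were left out, as was the authors' table of comparisons with 0 h.

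The 11 and 10 libraries entered edgeR 4.0.16 (R 4.3.3) alone, with no covariate: a quasi-likelihood test after TMM scaling and filterByExpr by time, and Benjamini-Hochberg adjustment over 6282 genes. CPM used TMM-scaled library sizes, and an SE is the log2 fold change divided by the root of F. For a gene without counts at one time, the bound takes 3 counts over that group; for 1 to 3 counts a ratio with its 95% exact interval is given. The mitochondrial share was tested with 100000 resamples (SciPy 1.17.1). The biological coefficient of variation was 29.4%. The fit was tested on simulated data first. Positions are from GENCODE M21 (GRCm38), where 19557 symbols of the table occurred once.

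The comparison, the 38 gene lists, the tests and the naming rule were chosen with earlier results of these data known. The rule took the top 12 called genes in each direction (mean log2 CPM at or above 3, an established name, the same sign when all 46 libraries were fitted), then at most 2 called genes per list and direction, then 28 ovulation genes whatever their result. Further genes in the text (among them Btg2, Egr2, Junb and those of the closing section) were added after their values were seen. Alternatives were RLE factors, no count filter, DESeq2 1.42.0, a replicate block, all 46 libraries, thinning to 302737 counts, limma 3.58.1 on log2-transformed TPM (1 or 0.1 added, for genes averaging 1 TPM or more), and leaving out each library.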

Additional observations from a re-analysis of the deposited data

Results flagged for a closer look

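At 1 h, 170 genes (on log2 CPM) and 3 measures of the whole library were examined over the 10 libraries, and in 16 genes 1 library stood apart by Dixon's test (critical value 0.466), where chance sets apart about 1 in 20. The 8 h group, with 11 libraries, was not examined this way. In 10 of the 16 genes the library was replicate 1. It held the only count of Sfrp2, Steap1, Prkg2 and Clcf1 at that time, each at 1.42 CPM, and these 4 genes were at 0 in the other 1 h libraries, so that they stand apart by construction. Without them, 12 of 166 genes remain, 6 of them with replicate 1. It also held the lowest CPM of Cyr61 (805), Hmmr (1.42), Mcm3 (1.42), Ccna2 (2.84), Pcsk5 (18.4) and Chst8 (41.2).

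The other genes involved replicates 4, 5, 9 and 10. Serpinb2 was highest in replicate 4 at 5.95 CPM, Btc in replicate 5 at 11.9 CPM and Msc in replicate 9 at 10.4 CPM, each below every 8 h library. Slc2a1 was lowest in replicate 9 at 3.47 CPM, and Pmvk in replicate 5 and Arntl in replicate 10 had no count, at 0 CPM. Of the genes named here, only Pmvk lost its call when a library was left out, and that library was replicate 6.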

How the results depend on the processing

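All 3616 calls kept their sign with RLE factors, no count filter, DESeq2, the replicate block and all 46 libraries, and the number of them called again was 3599, 3161, 3574, 3325 and 3224 in that order (2990 of 3610 on log2(TPM + 1)). With no filter, 17928 genes were tested, and 5578 were called (3137 higher, 2441 lower, 3633 by 2-fold or more), while the median over the genes tested here rose to 0.19. All libraries thinned to the shallowest left 2867 genes tested and 1773 called (888 higher, 885 lower, 813 by 2-fold or more), as fewer genes could be tested. On log2(TPM + 1), 5422 of 10907 genes were called, 3696 higher and 1726 lower, with 2725 at 2-fold or more, and with a pseudocount of 0.1, 5201 were called, 3594 higher and 1607 lower, with 3337 at 2-fold or more; the cause was not tested. Leaving out 1 library gave 3410 to 3738 called genes, 1781 to 1980 higher, 1629 to 1782 lower and 1484 to 1716 at 2-fold or more, and a mitochondrial difference of -2.91 to -2.35 points.

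No pairing by replicate number was seen in expression: over 10 pairs of the same number the correlation of deviations ran from -0.16 to 0.08, and no 1 h library was closest to its own number. The labels tie no follicle to an animal, so whether follicles of the same number share an origin is unknown. The replicate block called 3378 genes, 1756 higher and 1622 lower; Hsd3b1 (-0.71, adjusted p = 0.029 by edgeR) was called with it and Dusp1 (-0.61, adjusted p = 0.27) was not. Among 170 named genes tested, Star reversed with all 46 libraries (-0.18) and ranged from -0.28 to 0.37 without 1 library, and Adamts1 reversed with the block (-0.16) and with all 46 libraries (-0.050). Neither passed the test. Without 1 library the fold change of 18 genes moved by more than 1.5 times, each named beside its value where it is described. In thinly counted genes such as Sfrp2 a single count in 1 library sets the size of the fitted change, and depth at 1 h limits the bounds for genes at 0.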

Other observations

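Gene families grouped by name were looked at after the values were seen. Of 12 tubulin genes tested 11 rose and none fell, with a median log2 change of 1.63, and of 13 collagen genes 7 fell and none rose, with a median of -1.61, beside 29.6% higher and 27.9% lower over all genes tested. Of these, 5 tubulins and 3 collagens (Col1a1, Col1a2 and Col3a1) also stand in the lists above, and theca and stroma markers fell beside the collagens (5 of 10 tested, median -1.81), a part that was not tested. Itga5, a subunit of the fibronectin receptor, went from 15.1 to 27.8 CPM (median 21.9) at 1 h to 266 to 432 (median 288) at 8 h. The adhesion molecule Alcam rose from 0 to 10.4 CPM (median 2.06) to 75.2 to 557 (median 320), and Robo2, a receptor for SLIT ligands, from 0 to 26.3 (median 8.46) to 175 to 682 (median 365). Far1 and Abhd2, both enzymes of lipid metabolism, rose by 4.83 ± 0.26 and 5.19 ± 0.40 (SE), and Hmga1, a chromatin protein, by 5.84 ± 0.30. Lgals3 (galectin 3) rose by 5.69 and Nts (neurotensin) by 5.85, or by 6.50 and 6.56 without 1 h replicate 7.

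Clcf1, a ligand of the interleukin 6 family, had 1 count over the 1 h libraries and 18 to 34.5 CPM at 8 h (median 22.4), a ratio of 157 at equal depth (95% exact interval 28.1 to 6225), and its fitted change went from 6.56 to 7.95 without 1 h replicate 1. Osmr, the oncostatin M receptor, went from 0 to 5.28 CPM to 2.61 to 157 (median 25.2). Il6, Il11 and Lif were below the count filter. Among falls, Gas6, a ligand of TAM receptors, went from 365 to 1779 CPM (median 847) to 6.82 to 36.7 (median 15.1), Prss23, a serine protease of the ovary, fell by 5.43 ± 0.38, and Ihh, a hedgehog ligand from granulosa cells, also fell (-5.04, or -5.65 without 8 h replicate 4). By TPM, Gja1 left the 15 most abundant genes between 1 h and 8 h (17063 to 4776), while Tsc22d1 (3553 to 10556) and Ephx2 (274 to 6018), an epoxide hydrolase, entered them.

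Speer4a and Speer4b, of a repeated gene family, rose by 4.64 ± 0.60 and 5.58 ± 0.48, and all 10 rows named after the clones RP24-162F23 and RP23-56M18 rose, by 4.00 to 7.41, against 52 rises in 286 tested rows with names of this kind. Speer genes are near-identical copies, so reads may be split between them. What the rows named after clones code for was not tested.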
